A study of Mus musculus with 8 samples.

Results

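The SLIT ligands (Slit1, Slit2 and Slit3) and the ROBO receptors Robo1 and Robo2 were followed in maps of accessible chromatin from 4 populations of mouse hair follicle cells. Peaks that overlapped between lists were joined, which gave 114956 sites, and each was credited to the protein-coding gene whose span lay nearest, at most 100 kb away. The 5 genes held 182 of these sites, made of 353 peaks, and all 182 sites were kept. The genes were chosen by their numbers of peaks in these lists, so the site counts below are descriptions and carry no test. The comparisons of site counts, of which list holds a site and of pileup come from the same peaks, and none of them is independent evidence of that choice.

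The resting phase (telogen, postnatal day 55) was sampled as stem cells of the bulge and as hair germ cells. The growing phase (anagen, postnatal day 30) was sampled as TACs, transient amplifying cells that divide and give rise to the hair, in a basal and a suprabasal set. Bulge cells were sorted as GFP+/CD34+/Itga6+/Itgb1+, hair germ cells as GFP+/CD34-/Itga6+/Itgb1+ and basal TACs as GFP-/CD34-/Itgb1high/Pcad+/SCA1-, all from Lgr5-eGFP-ires-CreER mice. The suprabasal set was taken from K14-H2BGFP mice, sorted as GFPlow/Itga6-/CD34-. Both transgenes mark cells by GFP, driven by the keratin 14 and Lgr5 genes, and all mice were of mixed sex, with back skin as the tissue. Age and hair cycle stage differ together between the TACs and the telogen populations, so population, age and stage cannot be told apart there. Strain differs for suprabasal TACs, so in their comparisons population and strain cannot be told apart. Each population has 2 samples pooled in 1 peak list, so values have no replicate error, and p-values are not given. The intervals are exact 95% intervals that cover counting error only.

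SLIT proteins are large secreted glycoproteins that bind the immunoglobulin domains of ROBO receptors, which cross the membrane once. The pair was found as a repellent of growing axons, and it also guides migrating cells and shapes blood vessels and epithelia. Inside the cell ROBO receptors act on the actin skeleton through srGAP proteins, Abl kinases and Ena/VASP proteins. Slit2 and Slit3 also carry the microRNA miR-218 in their introns, and miR-218 is known to act on Robo1 and Robo2 transcripts.

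The starts of the genes are shown first, because they separate what was open in all populations from what was not. Each line gives the 250 bases before a transcription start in the RefSeq table of GRCm38.p6 (the mm10 build), read 5′ to 3′ on the gene's strand, with CpG dinucleotides in capitals. The table held starts for Slit2, Slit3, Robo1 and Robo2, and it has no entry for Slit1.
Slit2, chr5:47982905-47983154, plus strand: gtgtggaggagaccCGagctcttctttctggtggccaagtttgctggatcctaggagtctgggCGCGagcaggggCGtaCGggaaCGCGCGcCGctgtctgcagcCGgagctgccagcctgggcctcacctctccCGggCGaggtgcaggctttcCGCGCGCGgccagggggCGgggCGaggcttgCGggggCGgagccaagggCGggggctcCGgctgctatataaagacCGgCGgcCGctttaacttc
Slit3, chr11:35121206-35121455, plus strand: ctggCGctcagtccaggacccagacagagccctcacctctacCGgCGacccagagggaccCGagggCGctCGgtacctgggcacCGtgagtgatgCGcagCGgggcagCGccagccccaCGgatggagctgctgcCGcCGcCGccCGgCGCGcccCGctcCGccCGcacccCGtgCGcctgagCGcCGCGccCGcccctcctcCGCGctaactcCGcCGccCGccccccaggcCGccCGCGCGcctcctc
Robo1, chr16:72662899-72663148, plus strand: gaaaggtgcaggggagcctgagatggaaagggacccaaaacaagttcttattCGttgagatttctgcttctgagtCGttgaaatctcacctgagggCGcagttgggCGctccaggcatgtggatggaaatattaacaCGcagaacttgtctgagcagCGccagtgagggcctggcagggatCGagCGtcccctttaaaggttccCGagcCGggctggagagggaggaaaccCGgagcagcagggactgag
Robo2, inner start, chr16:74411826-74412075, minus strand: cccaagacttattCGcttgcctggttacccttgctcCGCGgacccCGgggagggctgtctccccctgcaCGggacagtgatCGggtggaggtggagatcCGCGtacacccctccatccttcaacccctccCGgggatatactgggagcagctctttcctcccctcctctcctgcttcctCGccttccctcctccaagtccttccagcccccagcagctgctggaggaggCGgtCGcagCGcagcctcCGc
Robo2, middle start, chr16:75092771-75093020, minus strand: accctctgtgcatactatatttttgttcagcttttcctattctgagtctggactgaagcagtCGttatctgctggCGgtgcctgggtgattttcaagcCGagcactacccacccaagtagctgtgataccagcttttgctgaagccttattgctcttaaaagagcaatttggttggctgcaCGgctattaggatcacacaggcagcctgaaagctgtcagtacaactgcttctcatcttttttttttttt
Robo2, outermost start, chr16:75447294-75447543, minus strand: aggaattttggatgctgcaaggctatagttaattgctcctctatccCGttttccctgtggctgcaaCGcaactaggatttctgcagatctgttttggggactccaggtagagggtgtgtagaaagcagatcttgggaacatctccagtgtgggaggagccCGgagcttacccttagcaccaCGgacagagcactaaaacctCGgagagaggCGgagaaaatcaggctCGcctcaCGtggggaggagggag

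The first 4 of these windows overlapped a peak in all 4 lists, and the middle and outermost Robo2 starts overlapped none in any list. The windows with peaks held 25 CpG dinucleotides at Slit2, 35 at Slit3, 11 at Robo1 and 14 at the inner Robo2 start. The windows with no peak held 4 at the middle and 8 at the outermost Robo2 start. Among all 32619 windows of the table the median was 6. Windows with a peak in all 4 lists (41.4% of all) had a median of 17, and windows with none (51.3%) a median of 2. The outermost Robo2 window, with 8, was therefore richer in CpG than the median of all windows, although no list held a peak there. A GC box (GGGCGG, either strand) was found in the Slit2 and Slit3 windows, against 33.0% of all windows, and a TATA box (TATAAA, either strand) in Slit2, against 12.4%. The E-box CACGTG occurred in the outermost Robo2 window, against 6.06% of all windows. The CCAAT box, the TCF/LEF core CTTTGA and the AP-1 motif TGAGTCA, searched on both strands, are not in these 6 windows, against 34.0%, 13.9% and 4.48% of all windows that hold them. None of these matches is evidence of a bound factor.

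At the starts, the Robo1 site kept its signal in both TAC lists, and the Slit3 site was low in suprabasal TACs. Pileup, the number of fragments over a peak's summit, was divided by the total fragments of the library and is given in parts per 1e6 fragments (ppm). The only Robo1 start with a RefSeq entry lies 636 kb inside the gene span. The outermost 5′ end of the span has no start entry, and no list held a site in its first 267 kb. The Robo1 start with an entry (chr16:72662777-72664492) had 4.40 ppm in bulge cells, 7.42 in hair germ cells, 7.88 in basal TACs and 7.84 in suprabasal TACs. The lowest value was that of the bulge, and the other 3 lay close together. These values come from pileups of 106, 82, 243 and 375 fragments in the same order. Its log2 ratio of suprabasal TACs to bulge was 0.83 (0.52 to 1.16), while the median over the 10072 sites that lie over a start and are held by all 4 lists was -1.22. Of those sites, 98.6% had a lower ratio. The ratio of hair germ to bulge was 0.75 (0.32 to 1.18) and that of basal TACs to bulge 0.84 (0.50 to 1.18), and 97.1% and 96.7% of those sites had a lower ratio.

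The Slit3 start (chr11:35120681-35121668) had 4.78 ppm in bulge cells, 3.17 in hair germ cells, 3.24 in basal TACs and 0.731 in suprabasal TACs. The suprabasal value stands apart from the other 3. Its log2 ratio of suprabasal to basal TACs was -2.15 (-2.75 to -1.58), and 1.03% of the start sites had a lower one. The ratio of suprabasal TACs to bulge was -2.71 (-3.30 to -2.15), with 1.82% of start sites lower. Slit2 had 2.74, 1.90, 1.72 and 0.773 ppm at its start in the order bulge, hair germ, basal and suprabasal TACs, highest in bulge and lowest in suprabasal TACs. The medians of all start sites held by 4 lists had the same order (6.98, 6.79, 4.35 and 2.95 ppm). The inner Robo2 start (chr16:74410584-74413291) had 6.44 ppm in bulge cells, 5.70 in hair germ cells, 2.30 in basal TACs and 1.76 in suprabasal TACs. Its log2 ratio of basal TACs to hair germ was -1.31 (-1.82 to -0.79), against a median of -0.65 over the start sites, of which 8.71% were lower.

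**Figure D1:**
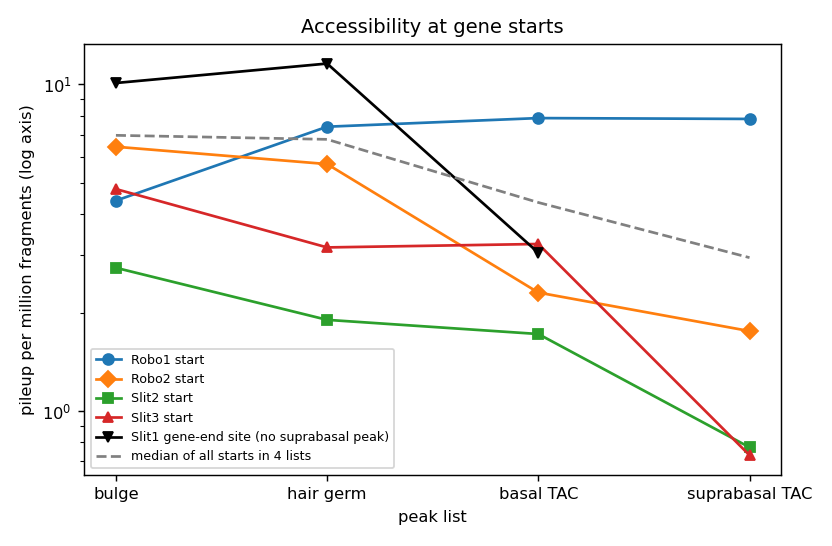
Pileup at the summit per 1e6 fragments (log axis) of the sites over the annotated starts of Slit2, Slit3, Robo1 and Robo2 and of the site over the higher-coordinate end of Slit1, by peak list, with the median of all 10072 start sites held by 4 lists as a dashed line (6.98, 6.79, 4.35 and 2.95 ppm). The Robo1 line lies above the median in the hair germ and both TAC lists (7.42, 7.88 and 7.84 ppm), and the Slit3 line ends at 0.731 ppm in suprabasal TACs.

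Signal at shared sites was lower in TAC lists across the genome, and every such ratio is to be read against that. The median log2 ratio over sites held by both lists was -0.01 for hair germ to bulge, -0.50 for basal TACs to hair germ, -0.57 for suprabasal to basal TACs, -1.07 for suprabasal TACs to bulge and -0.45 for basal TACs to bulge. Libraries held 24065469 fragments (bulge), 11053351 (hair germ), 30824845 (basal TACs) and 47852893 (suprabasal TACs), and the median fold enrichment of peaks was 7.48, 7.14, 6.71 and 4.79. The effect of depth and enrichment on the calls was not tested beyond the settings in the closing section. Ratios called relative below have the median over all sites subtracted. Bulge markers (7 genes) held 103, 88, 82 and 68 sites in the bulge, hair germ, basal and suprabasal lists. Matrix and TAC markers (7 genes) held 40, 51, 112 and 131. Suprabasal TACs had fewer sites than the bulge at 6 bulge markers and more at 1 (background 22.2% and 44.6% of genes). They had more at all 7 matrix and TAC markers. Tcf7l1 (18, 16, 24 and 16) had its most sites in basal TACs and Lhx2 (13, 13, 11 and 15) in suprabasal TACs, though both are bulge markers. The marker lists were chosen with earlier results of these data known, so these counts are no test of identity. Markers of other cells held sites in every list, with 35, 32, 40 and 23 sites for 5 endothelial genes, 19, 11, 23 and 25 for 5 dermal genes, 31, 22, 32 and 35 for 5 melanocyte genes, 3, 5, 14 and 12 for 4 immune genes, and 10, 8, 12 and 9 for 4 Schwann and neural genes. Tek and Emcn, both endothelial, had no site in suprabasal TACs. Of the other endothelial genes, Pecam1 had 10, 10, 9 and 12 sites, Cdh5 7, 6, 10 and 9 and Kdr 5, 3, 2 and 2. Tyr, a melanocyte enzyme, had none in any list, but Dct had 3, 3, 8 and 13 and Kit 1, 1, 2 and 7. Mitf had 26, 18, 21 and 13 and Pmel 1, 0, 1 and 2. The part of other cell types in the results was not tested.

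**Figure D2:**
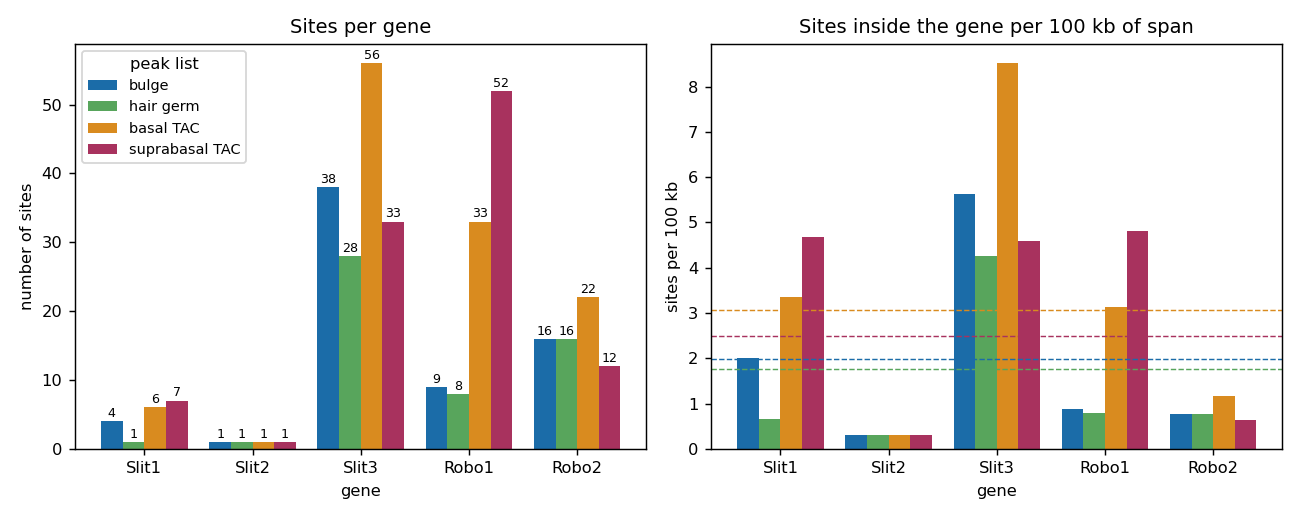
Number of sites held by each peak list (left) and sites inside the gene per 100 kb of its span (right) for the 5 genes, with the median of 2427 genes of at least 100 kb as dashed lines in the list's colour. Slit3 has its highest bar in basal TACs (56 sites, 8.52 per 100 kb) and Robo1 in suprabasal TACs (52 sites, 4.80 per 100 kb).

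The genes are long, so counts were also set per 100 kb of gene span. Slit1 spans 149 kb, Slit2 326 kb, Slit3 587 kb, Robo1 1020 kb and Robo2 1555 kb. Of the 182 sites 162 lie inside a span and 20 outside. Among genes of at least 100 kb the median density was 1.99 sites per 100 kb in bulge cells, 1.76 in hair germ cells, 3.06 in basal TACs and 2.50 in suprabasal TACs. Slit3 was above it in every list, at 5.62, 4.26, 8.52 and 4.60, and in basal TACs 89.2% of long genes had a lower density. Robo1 was below the median in bulge (0.882) and hair germ (0.784), close to it in basal TACs (3.14) and above it in suprabasal TACs (4.80, with 69.5% of long genes lower). Robo2 stayed below it in all 4 lists (0.771, 0.771, 1.16 and 0.643), as did Slit2 (0.306 in each). Slit1 had 2.01, 0.669, 3.35 and 4.68, so it was below the median in the hair germ, close to it in bulge and basal TACs and above it in suprabasal TACs, where 68.4% of long genes had a lower density.

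Slit3, the most site-rich ligand, held 38 sites in the bulge list, 28 in the hair germ, 56 in basal TACs and 33 in suprabasal TACs. Of its 76 sites, 6 were held by suprabasal TACs alone, 24 (31.6%) by basal TACs alone, 6 by both TAC lists only and 8 by telogen lists only. Of all sites, suprabasal TACs alone held 15.5%, basal TACs alone 14.5%, both TAC lists only 10.8% and telogen lists only 15.9%. The Slit3 site with the highest summed signal (chr11:35414278-35416463, inside the gene) had 17.2 ppm in bulge cells, 10.1 in hair germ cells, 8.24 in basal TACs and 4.47 in suprabasal TACs. It was the highest Slit3 site of both TAC lists. The strongest site of both telogen lists (chr11:35686777-35687919, inside the gene) had 21.4 ppm in bulge cells, 14.6 in hair germ cells, 1.62 in basal TACs and 1.23 in suprabasal TACs. Both TAC values were below both telogen values. Its relative log2 ratio of basal TACs to hair germ was -2.67. A pair of sites about 10 kb apart repeated this order: chr11:35307561-35308558 had 12.5, 6.79, 0.519 and 0.439 ppm, and chr11:35317098-35318488 had 15.3, 5.52 and 0.746 ppm with no suprabasal peak. Several sites near the start were instead highest in basal TACs or held by basal TACs alone. The site chr11:35132481-35133325, 11.4 kb inside the gene, was held by basal TACs alone at 7.10 ppm, and chr11:35151575-35152262 by basal TACs alone at 3.34 ppm. A further site, chr11:35149435-35150604, had 0.914 ppm in bulge cells, 1.45 in hair germ cells, 7.56 in basal TACs and 1.34 in suprabasal TACs. There the basal value was the highest by several fold.

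Slit3 also had 3 neighbouring sites between 35196412 and 35200919 on chromosome 11 that were low in suprabasal TACs (0.669, 0.543 and 0.502 ppm) and high in basal TACs (5.03, 4.41 and 5.03 ppm). Their relative log2 ratios of suprabasal to basal TACs were -2.34, -2.45 and -2.76. Split into 5 equal parts from the start, a split made after the values were seen, the first of them held 17 sites. Of these 7 had a bulge peak, 4 a hair germ, 16 a basal TAC and 6 a suprabasal TAC peak, and 8 were held by basal TACs alone. The second of them held 21 sites, with 14, 11, 14 and 9 peaks in bulge, hair germ, basal and suprabasal lists. Part 4 held 10 sites, with 1, 2, 10 and 4. Part 3 held 11 sites, with 7, 5, 7 and 6, and part 5 held 6 sites, with 4, 3, 3 and 2. The basal TAC list thus held more sites than the bulge list in parts 1 and 4, as many in parts 2 and 3 and fewer in part 5. The summed signal in the first was 10.6, 5.34, 48.9 and 5.16 ppm, and in the second 58.9, 34.3, 18.3 and 12.0 ppm. Single-list sites were moderate in height: the 24 sites of basal TACs alone had a median of 1.30 ppm, against 1.04 for all such sites in the genome.

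**Figure D3:**
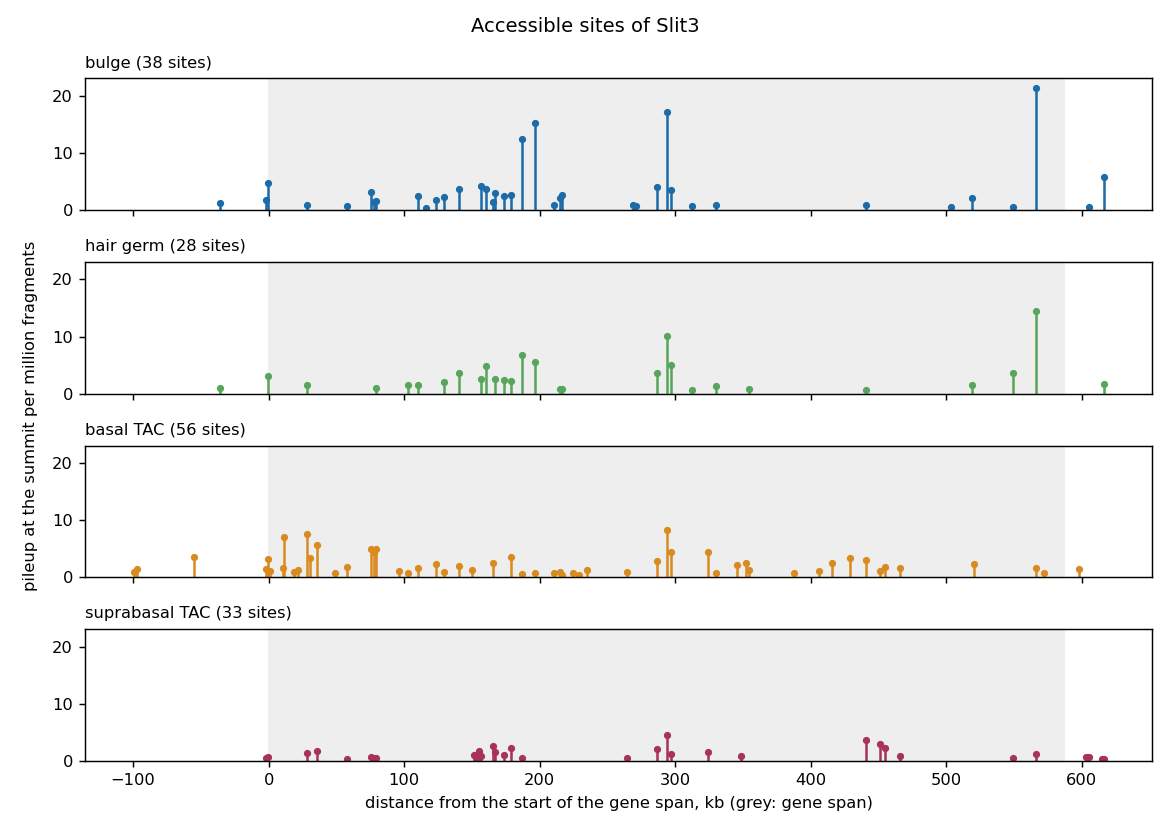
Pileup at the summit per 1e6 fragments of every Slit3 site, by distance from the start of the gene span in kb (grey: gene span), with 1 panel per peak list. Of the 4 tallest bulge peaks, those with 21.4, 15.3 and 12.5 ppm are low or missing in the TAC panels, the one with 17.2 ppm is the tallest peak of both, and the peaks just after the start are tallest in basal TACs.

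Slit1 and Slit2 add few sites. Slit2 had a single site, over its start (chr5:47982823-47984456), and the 323 kb of its span after that site held no site in any list. Slit1 held 4 sites in the bulge list, 1 in the hair germ, 6 in basal TACs and 7 in suprabasal TACs. At −log10 q of at least 10 these were 2, 1, 4 and 3, so the suprabasal list no longer held the most. The strongest Slit1 site (chr19:41745961-41748046) lies over the higher-coordinate end of the gene. It had 10.1 ppm in bulge cells, 11.6 in hair germ cells and 3.05 in basal TACs, with no suprabasal peak, so the list with the most Slit1 sites lacks its strongest. The strand of Slit1 is not in the tables used, so this end is not called a start. Close by, chr19:41738042-41739105 had 3.11 ppm in suprabasal TACs and 2.01 in basal TACs and no telogen peak. Its relative log2 ratio of suprabasal to basal TACs was 1.198.

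The mature miR-218-5p is the same from both host genes, and its seed (bases 2 to 8, in capitals) is shown here because the loci lie inside the ligand genes.
miR-218-5p: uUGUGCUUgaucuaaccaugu
Its Slit2 locus (Mir218-1, chr5:48223942-48224051) lies 239 kb from the only Slit2 site. Its Slit3 locus (Mir218-2, chr11:35616816-35616925) lies 7.61 kb from the nearest site, which only the bulge list held. That site was low, at 0.623 ppm, below the 10th percentile of peak heights in the bulge list (0.748) and in the hair germ list (0.905). Its absence from the hair germ list is therefore uncertain. No site overlapped either hairpin.

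Robo1 held 9 sites in the bulge list, 8 in the hair germ, 33 in basal TACs and 52 in suprabasal TACs. Of its 58 sites, 47 (81.0%) were held by TAC lists only and none by telogen lists only. Suprabasal TACs alone held 24 (41.4%), basal TACs alone 4, and both TAC lists only 19 (32.8%). Over all sites TAC lists only held 40.8%, with 15.5% in suprabasal TACs alone, 14.5% in basal TACs alone and 10.8% in both. The strongest TAC-only site (chr16:72361337-72363120) had 4.70 ppm in suprabasal and 7.46 in basal TACs. The sites of suprabasal TACs alone were mostly low: their median was 0.700 ppm, against 0.648 for all such sites in the genome, and the highest (chr16:72738032-72739297) had 1.99 ppm. In 6 of the 24 the suprabasal value reached 0.905 ppm, the 10th percentile of peak heights in the hair germ list and the highest such value among the other lists. Over the genome 4981 of 17842 sites of suprabasal TACs alone reached it.

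Some Robo1 sites did not follow the count. The site chr16:72350091-72351135 had 1.62 ppm in bulge cells, 8.05 in hair germ cells, 2.92 in basal TACs and 2.57 in suprabasal TACs, and its relative log2 ratio of hair germ to bulge was 2.32. The site chr16:72998035-72999514 had 6.57, 5.07, 3.60 and 1.88 ppm in the same order, a steady decline in ppm. The relative log2 ratios of this site were smaller: -0.37 for hair germ to bulge, 0.01 for basal TACs to hair germ and -0.37 for suprabasal to basal TACs. The site chr16:72867898-72868736 had 0.961 ppm in suprabasal TACs and 5.06 in basal TACs, with no telogen peak. The sites were unevenly spread: the first 267 kb of the span (26.1%) held no site in any list, and of the 55 sites inside the gene the last 2 of 5 equal parts held 21 and 23. In the earlier of these, which holds the start with peaks and the stretch after it, 1 of the 21 sites had a bulge peak, 3 a hair germ, 9 a basal TAC and 20 a suprabasal TAC peak.

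**Figure D4:**
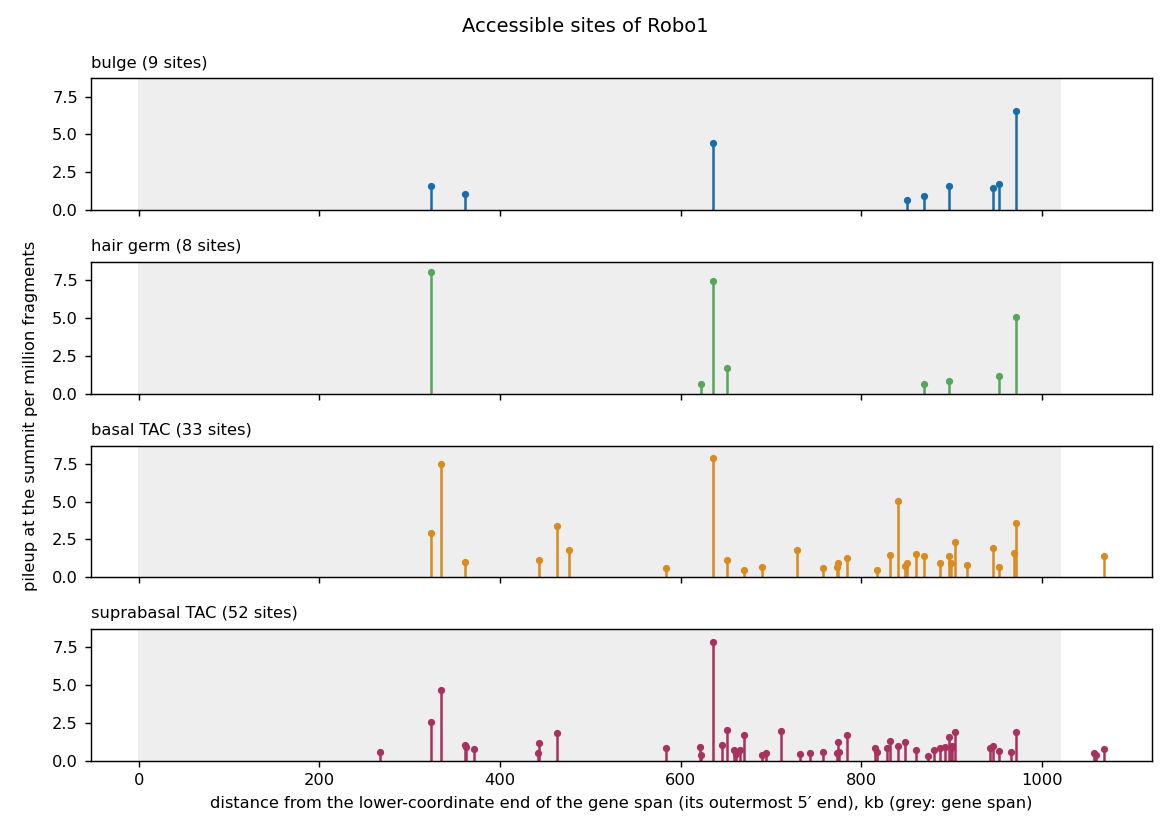
Pileup at the summit per 1e6 fragments of every Robo1 site, by distance from the outermost 5′ end of the gene span in kb (grey: gene span), with 1 panel per peak list. The tall peak at the start with peaks is in all 4 panels (4.40, 7.42, 7.88 and 7.84 ppm), and the many low peaks after it are in the TAC panels.

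Robo2 held 16 sites in the bulge list, 16 in the hair germ, 22 in basal TACs and 12 in suprabasal TACs. The basal TAC list did not hold the most Robo2 sites when all lists were cut to equal numbers of peaks (15, 16, 13 and 11). Of its 36 sites, 15 (41.7%) were held by TAC lists only and 12 (33.3%) by telogen lists only, against 40.8% and 15.9% of all sites. Many of these were low single-list sites. The 5 of the bulge alone had a median of 0.790 ppm and the 3 of the hair germ alone 0.905, against 0.997 and 0.995 for all such sites. The 9 of basal TACs alone had a median of 0.779 ppm, against 1.04. The strongest Robo2 site (chr16:73855487-73856456, 36.0 kb past the end of the gene) had 8.64 ppm in bulge cells, 6.51 in hair germ cells, 4.22 in basal TACs and 1.36 in suprabasal TACs. A pair of sites about 20 kb apart was high in basal TACs: chr16:74631509-74632564 was held by basal TACs alone at 4.87 ppm, and chr16:74611145-74612268 had 2.202 ppm in bulge cells, 0.995 in hair germ cells, 5.09 in basal TACs and 0.585 in suprabasal TACs. The site chr16:74027774-74028209 had 0.995 ppm in the hair germ and 3.41 in the bulge and no TAC peak. The outer 626 kb from the 5′ end (40.2% of the span), with both starts that had no peak, held no site in any list.

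**Figure D5:**
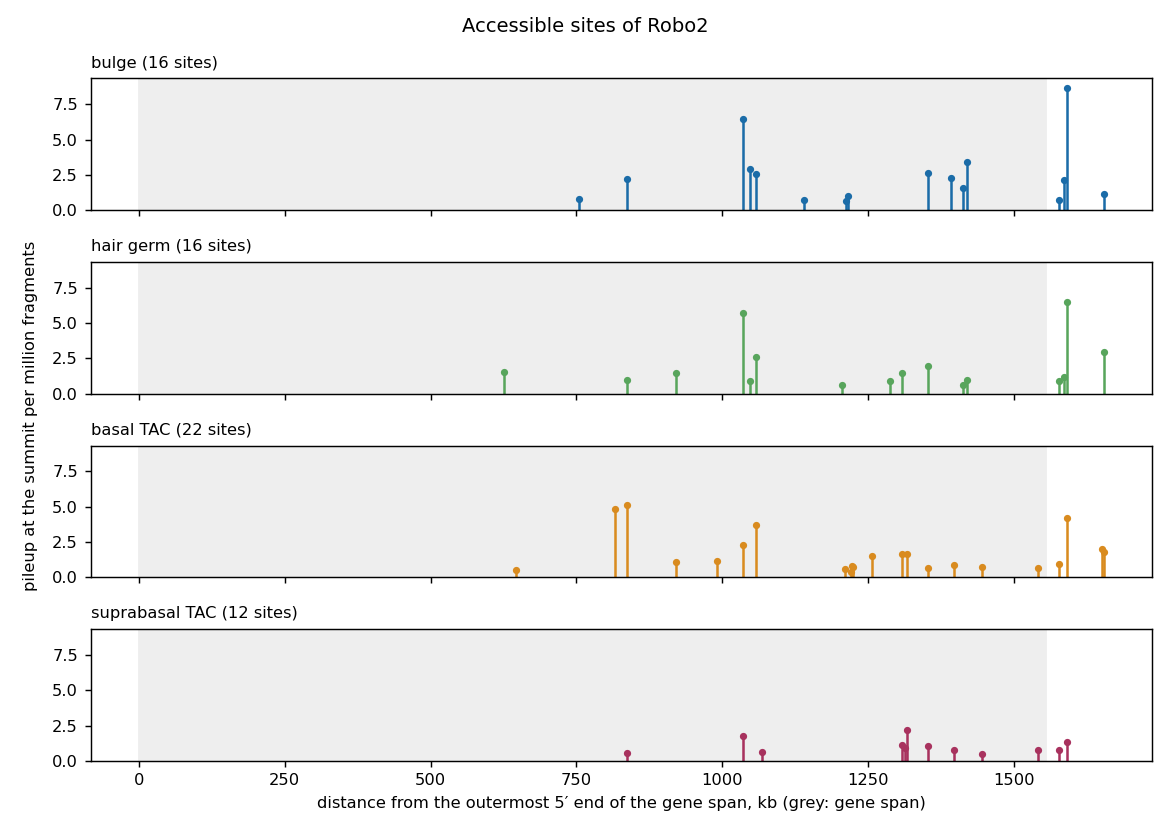
Pileup at the summit per 1e6 fragments of every Robo2 site, by distance from the outermost 5′ end of the gene span in kb (grey: gene span), with 1 panel per peak list. No list has a peak in the first 626 kb, and the site 36.0 kb past the gene's end is the tallest in the bulge and hair germ panels (8.64 and 6.51 ppm).

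The 5 comparisons were read against all sites. Between hair germ and bulge, the members had 9 sites in the hair germ alone and 23 in the bulge alone, of 77 held by either list. These were 11.7% and 29.9%, against 9.92% and 19.7% of all sites held by either. Of the sites held by only 1 of these lists, 28.1% (13.7 to 46.7) were in the hair germ, against 33.5% of all. Of 45 sites held by both lists, 3 were above and 8 below the median log2 ratio of all such sites by at least 2-fold, against 5.96% and 5.03% of all. Between basal TACs and hair germ, basal TACs alone held 81 sites and hair germ cells alone 17, of 135 held by either list. These were 60.0% and 12.6%, against a background of 38.0% and 15.2%. The basal share was 82.7% (73.7 to 89.6), against 71.3% of all. Slit3 had 80.4%, Robo1 96.3%, and Robo2 65.0%. Of 37 sites held by both lists, 8 were above and 5 below the median ratio of all such sites by at least 2-fold, against 15.2% and 10.0% of all. Counting only sites whose height reached the other list's floor (the 10th percentile of its peak heights) left 56 against 14, or 80.0% in basal TACs, against 63.1% of all sites counted so.

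Between suprabasal and basal TACs Slit3 and Robo1 parted. Together the members had 43 sites in suprabasal TACs alone and 56 in basal TACs alone, of 161 held by either list. These were 26.7% and 34.8%, against a background of 22.7% and 27.4%. The suprabasal share was 43.4% (33.5 to 53.8), against 45.4% of all. Within the members, Slit3 had a share of 25.5% (13.9 to 40.3), with 12 sites in suprabasal TACs alone and 35 in basal TACs alone, while Robo1 had 80.6% (62.5 to 92.5), with 25 and 6. Both genes were chosen by such counts, so this contrast is a description. Robo2 went with Slit3 and not with Robo1, at 14.3%, with 2 and 12. Only some of these sites had a height that reached the other list's floor. Counted so, Slit3 had 8 and 33 (19.5%), Robo1 13 and 6 (68.4%) and Robo2 1 and 11 (8.33%), against 29.1% of all sites. Of sites held by both lists, 1 of 21 Slit3 sites was above and 9 were below the all-site median by at least 2-fold, and of 27 Robo1 sites 3 were above and 1 below. Over all sites held by both, 10.4% were above and 13.4% below.

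Between suprabasal TACs and bulge, 70 sites were in suprabasal TACs alone and 33 in the bulge alone, of 138 held by either list. These were 50.7% and 23.9%, against a background of 34.9% and 25.5%. The suprabasal share was 68.0% (58.04 to 76.8), against 57.8% of all. Robo1 had 45 and 2, or 95.7% (85.5 to 99.5). Slit3 had 12 and 17, and Robo2 7 and 11, so among the 3 genes with most sites the suprabasal count was the larger at Robo1 alone. Counting only heights that reached the other list's floor left 25 and 2 at Robo1, or 92.6%, against 41.2% of all sites counted so. Slit3 then had 8 and 16, and Robo2 4 and 11. Of 35 sites held by both lists, 9 were above and 7 below the all-site median by at least 2-fold, against 17.7% and 14.5% of all. Between basal TACs and bulge, basal TACs alone held 74 sites and bulge cells alone 24, of 142 held by either list. These were 52.1% and 16.9%, against 34.6% and 20.3% of all. The basal share was 75.5% (65.8 to 83.6), against 63.0% of all. Robo1 had 24 and 0, Slit3 32 and 14 and Robo2 15 and 9. Of 44 sites held by both lists, 13 were above and 7 below by the same measure, against 18.7% and 12.1% of all.

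Over the members' sites held by both lists of a comparison, the log2 ratio of the summed pileup in ppm was -0.35 (-0.43 to -0.26) for hair germ to bulge and -0.46 (-0.55 to -0.36) for basal TACs to hair germ, against -0.07 and -0.54 over all sites. It was -0.72 (-0.78 to -0.66) for suprabasal to basal TACs, -1.43 (-1.51 to -1.36) for suprabasal TACs to bulge and -0.58 (-0.65 to -0.52) for basal TACs to bulge, against -0.61, -1.22 and -0.58 over all sites. With pileup scaled to the sites held by all 4 lists in place of total fragments, the sign turned for basal TACs to hair germ (0.11) and for basal TACs to bulge (0.01), so no direction is read for these. Scaled so, the ratio was -0.06 for suprabasal to basal TACs, -0.19 for suprabasal TACs to bulge and -0.32 for hair germ to bulge. Relative to the all-site median, Robo1 sites held by both lists had a median log2 ratio higher by 1.04 in suprabasal TACs to bulge (7 sites) and by 0.80 in basal TACs to bulge (9 sites), and Slit3 sites one lower by 0.56 in suprabasal to basal TACs (21 sites).

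The other genes of the pathway did not all share the pattern. Among 17 effectors, 14 had more sites in basal TACs than in the hair germ, 2 fewer and 1 as many, against a background of 49.3% of genes with more and 13.2% with fewer. Between suprabasal and basal TACs 5 had more, 7 fewer and 5 as many, against 31.4% and 31.0%. Hair germ cells had more sites than bulge cells at 1 effector and fewer at 11, against 13.8% and 30.5%. Against the bulge, suprabasal TACs had more at 10 and fewer at 5 (background 44.6% and 22.2%), and basal TACs more at 12 and fewer at 4 (44.0% and 18.9%). These gene backgrounds, and those given for markers and semaphorins, cover all genes with a site in either list and are not matched for length. Srgap1, which binds the inner part of ROBO receptors, had 19 sites in bulge cells, 18 in hair germ cells, 24 in basal TACs and 33 in suprabasal TACs, the same order as Robo1. Its relatives Srgap2 (7, 4, 9 and 5) and Srgap3 (10, 9, 16 and 11) peaked in basal TACs, as Slit3 did. Among 5 co-receptors and surface partners, Gpc1, a glypican that binds SLIT, had 5, 5, 8 and 11 sites, and Cntn1, a contactin, had 6, 5, 3 and 0. Robo3 had 5, 5, 6 and 5 and Robo4, the endothelial receptor, 1 in each.

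The 100 kb limit left out 10 sites nearest to Robo2, 8 nearest to Robo1 and 2 nearest to Slit2. Closest to it on the inside were a Slit3 site 99.4 kb away, held by basal TACs alone at 0.973 ppm, and a Robo2 site. The Robo2 site, at 99.0 kb, had 1.16 ppm in bulge cells, 2.99 in hair germ cells and 1.78 in basal TACs. Just outside were a Robo2 site at 107 kb with 3.45, 1.81 and 0.811 ppm in the same 3 lists and a Robo1 site at 112 kb held by the bulge alone at 0.914 ppm.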

How the data were processed

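ATAC-seq of 8 samples (2 in each of 4 populations) was compared as 4 peak lists, each called on both samples pooled. The authors' peak caller was MACS 2.1.1.20160309, run on whole paired-end fragments without a control, keeping duplicates, with q-values up to 0.05 accepted and the local background taken over 10 kb, per the file headers. The submitters' processing notes also name Bowtie2 2.2.9, Picard and mm10. Whether read ends were shifted for the transposase is not stated in the sources. For every peak the authors deposited its summit pileup (fragment coverage, a signal not scaled for depth), its significance as −log10 of the p-value and of the q-value, and its fold enrichment over that background.

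Peaks overlapping by at least 1 bp were merged into sites, without chromosomes M and Y (56 peaks). Gene spans, 21644 protein-coding genes, came from RefSeq on GRCm38.p6, and ties went to the shorter span. Of the sites, 102821 had a gene, and 16799 genes had a site. Pileup was scaled to 1e6 header fragments (ppm), taking the highest peak of a list in a site. A called ratio is at least 2-fold from the median of all sites held by both lists. Height floors are the 10th percentile of a list's ppm. Intervals are exact (Clopper-Pearson), at 95%. The scripts (Python 3.11.15, pandas 2.3.3, scipy 1.17.1) were tested on simulated sites.

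The members and gene lists were chosen with earlier results of these data known. Sites named come from the start site, the 3 with the highest summed ppm and, for each comparison, the 3 with the largest ratio and the 3 highest held by 1 list; a few more were chosen after their values were seen. Alternatives were stricter peaks (−log10 q of at least 10), equal numbers of peaks (56536 per list), absence scaled for depth, an overlap of 50% of the shorter peak, 20 kb, inside the span, and pileup scaled to sites of all 4 lists.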

Additional observations from a re-analysis of the deposited data

How the results depend on the processing

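No paired analysis was possible because each list pools both samples of a population, and leaving out a replicate could not be run for the same reason. The shares of hair germ against bulge, and every share with an overlap of 50% of the shorter peak, within 20 kb, inside the span or with −log10 q of at least 10, stayed within their intervals. With equal numbers of peaks the share was 65.3% for basal TACs against hair germ, from 82.7%, and 60.3% for basal TACs against bulge, from 75.5%. Both fell below their intervals. The share over all sites is not given at that setting, so no excess of the members over all sites is read there. With absence scaled for depth it was 30.3% for suprabasal against basal TACs and 54.9% for suprabasal TACs against bulge, against 29.1% and 41.2% of all sites so counted. The log2 ratio of summed pileup with equal numbers of peaks was -0.29 for basal TACs to hair germ, -0.78 for suprabasal to basal TACs, -1.22 for suprabasal TACs to bulge and -0.30 for basal TACs to bulge. At −log10 q of at least 10 it was -0.61 for suprabasal to basal TACs and -0.44 for basal TACs to bulge. For suprabasal TACs to bulge it was -1.33 within 20 kb and -1.30 inside the span. Scaled to sites of all 4 lists it turned sign for basal TACs to hair germ (0.112) and basal TACs to bulge (0.0118), and was -0.0636 for suprabasal to basal TACs and -0.19 for suprabasal TACs to bulge. The turned signs follow from that scaling, which raises the TAC lists. The causes of the other shifts were not tested. Sites counted over the 5 genes and 4 lists came to 345, and to 224 at −log10 q of at least 10. At that setting 8 of 20 single counts moved by over 1.5 times, with equal peaks 3 of 20, and within 20 kb or inside the span 0. Slit3 had its most sites in basal TACs and Robo1 in suprabasal TACs under all 6 settings of the counts. With equal numbers of peaks the Slit3 lead was narrower, at 38 in basal TACs against 33 in the bulge, from 56 against 38. Robo1 then had 38 in suprabasal against 21 in basal TACs, from 52 against 33. The hair germ list is the shallowest: 10% of its peaks are below 0.905 ppm, and absences there of sites at such heights are the least certain.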

Other observations

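Other guidance families had their own distributions over the lists, given here in lineage order from bulge to suprabasal TACs. The 9 netrin genes held 43, 38, 69 and 71 sites. Among them Neo1, a netrin and RGM receptor, had 7, 4, 9 and 20, Ntn1, a netrin ligand, had 6, 6, 13 and 5, and Dcc, the classical receptor, had none. The 11 semaphorin genes held 110, 93, 143 and 100 sites. Between suprabasal and basal TACs 2 of the 11 had more sites and 9 had fewer, against a background of 31.4% and 31.0% of genes. Sema3e, a secreted ligand, had 23, 16, 26 and 13, and Nrp2, a co-receptor, had 13, 14, 21 and 24. The 9 ephrin genes held 92, 80, 125 and 120 sites, with Efna5, a ligand, at 46, 38, 52 and 31 and Ephb2, a receptor, at 2, 1, 8 and 14.

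The genes whose site counts over the 4 lists were nearest to Slit3 (by the sum of absolute differences) were Arhgap24, with 41, 31, 51 and 38, and Rbms3, with 33, 33, 55 and 27. Cux1 (9, 12, 44 and 39) and Sox5 (21, 16, 36 and 46) were the nearest to Robo1, with sums of 28 and 29. Apbb2 was the nearest to Robo2 (17, 16, 22 and 14), with a sum of 3.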
